A study of Homo sapiens with 12 samples.

Results

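The data described here compare MDA-MB-231 cells kept in 5 mM glucose without any drug (LG) with the same cells in 10 mM glucose without drug (NG). MDA-MB-231 is an established human line of triple-negative breast cancer, a class that lacks the estrogen and progesterone receptors and HER2 amplification, and it is widely used as a model of invasive, glycolytic cancer cells. The comparison was chosen by the labels of the libraries, 3 LG and 3 NG of 12 in the series, and it covers every gene that passed a filter on low counts, 15104 of 40929 gene symbols. The other 6 libraries received cariporide, an inhibitor of the sodium-proton exchanger NHE1, at 25 µM, in 5 mM glucose (LGCAR) or 10 mM glucose (CAR), and all 4 groups were harvested after 48 h in RPMI-based culture with fetal bovine serum and without antibiotics. All cells were wild type and of 1 line, so that what is described holds for this line. Per the labels' protocols, total RNA was made into directional libraries with the NEBNext Ultra II kit, and the deposited values were whole counts per gene. Values below are CPM, counts scaled to a common library size by TMM, which are not divided by gene length, and log2 fold changes are LG over NG unless another pair is named.

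Cells read their glucose supply through several routes. Glucose 6-phosphate that builds up after uptake lets the transcription factor MondoA, paired with its partner MLX, enter the nucleus and bind tandem E-box elements, and TXNIP and ARRDC4 are its best-known targets. Both encode alpha-arrestins, adaptor proteins that limit glucose uptake, so that their transcripts are commonly read as gauges of glucose flux. Other routes run through AMPK, through protein glycosylation in the endoplasmic reticulum and through the ATF4 arm of the integrated stress response.

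The total counts ranged from 21093396 to 23991233 in LG and from 20771898 to 23372248 in NG. Cytosolic ribosomal RNA held 9.06%, 9.0% and 7.91% of the counts in LG 1 to 3, and 11.2%, 9.45% and 7.83% in NG 1 to 3, with overlap between the groups (exact two-sided permutation test p = 0.5, where 3 against 3 cannot go below 0.1). Nothing in the labels says that the libraries came from separate cultures, and p-values then measure only the spread between these libraries, which may be technical. Across 10937 genes, same-numbered LG and NG libraries deviated from their group means together (r = 0.242, 0.132 and 0.304 for numbers 1 to 3). Between LGCAR and CAR these correlations were negative (-0.171, -0.0611 and -0.0450), so no pairing is established. A fit over LG and NG alone with the replicate number as a block was added after seeing the data. That block removes the same spread that led to it, so its counts below are no separate support. On the first principal component of all 12 libraries, which held 35.8% of the variance, LG 3 and NG 1 lay apart from the other libraries of their groups, and counts without either are given below. Of 10 mesenchymal markers 9 were tested, from VIM at 1802 ± 57.4 CPM in LG and 1737 ± 29.9 CPM in NG to CDH2 at 1.02 CPM in LG and 0.939 CPM in NG (means, n = 3 each, SD for VIM), and TWIST1 of that list was at 0 in all 6 libraries. The luminal marker PGR and the basal markers KRT5 and KRT14 were at 0 as well. The 12 luminal markers summed to 1283 to 1352 CPM in LG and 1378 to 1447 CPM in NG, and the 10 basal markers to 1232 to 1280 CPM in LG and 1179 to 1217 CPM in NG, and their part in the results below was not tested. Leukocyte markers summed to 68.8 to 75.7 CPM in LG and 61.3 to 62.9 CPM in NG, almost all of it CD68, with the defining markers CD3E and MS4A1 at 0. Endothelial markers summed to at most 5.94 CPM and fibroblast markers to at most 29.8 CPM in any of the 6 libraries.

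The 2 glucose gauges fell most among the called genes. TXNIP, on chromosome 1 (GRCh38.p14, 145992435 to 145996579), was at 40.6, 50.0 and 48.6 CPM in LG 1 to 3, against 255, 259 and 278 CPM in NG 1 to 3. Every LG library held far less than the level of any NG library, and the spread inside either group was small beside that gap. ARRDC4, on chromosome 15 (97960703 to 97973833), was at 1.72, 1.09 and 1.70 CPM in LG and 6.31, 6.24 and 5.27 CPM in NG, again without overlap. On the log2 scale the change came to -2.51 for TXNIP (SE 0.0775, edgeR quasi-likelihood adjusted p = 7.91e-12) and -1.98 for ARRDC4 (SE 0.175, edgeR quasi-likelihood adjusted p = 2.58e-05). With any 1 of the 6 libraries left out, TXNIP kept a log2 fold change of -2.57 to -2.42. In RNA of whole cultures, a lower share of cells that express a gene and less RNA per cell cannot be told apart.

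The promoters of both genes are printed so that E-box letters, the kind MondoA binds, can be seen in them. The sequences run from 250 bases before to 50 bases after the annotated start and are those of RefSeq on GRCh38.p14, chr1:145996530-145996829 on the minus strand for TXNIP and chr15:97960453-97960752 on the plus strand for ARRDC4. Capitals in TXNIP mark a match to CACGNG, any 5 bases and CACGNG again, the tandem E-box-like element, which starts at position -88 from the start site. Capitals in ARRDC4 mark the E-box CACGTG at position -210.
TXNIP: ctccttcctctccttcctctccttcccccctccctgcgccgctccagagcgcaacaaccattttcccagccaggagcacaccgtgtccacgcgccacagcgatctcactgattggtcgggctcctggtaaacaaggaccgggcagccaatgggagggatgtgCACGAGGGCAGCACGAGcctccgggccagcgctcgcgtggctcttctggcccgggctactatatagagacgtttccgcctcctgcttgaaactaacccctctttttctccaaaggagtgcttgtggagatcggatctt
ARRDC4: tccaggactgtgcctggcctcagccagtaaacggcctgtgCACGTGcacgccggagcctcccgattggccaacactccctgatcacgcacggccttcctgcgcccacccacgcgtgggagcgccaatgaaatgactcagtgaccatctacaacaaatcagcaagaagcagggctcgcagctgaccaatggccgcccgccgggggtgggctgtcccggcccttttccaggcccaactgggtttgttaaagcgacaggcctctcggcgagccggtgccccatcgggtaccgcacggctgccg
Searched on both strands, the paired element was found in 20 of 27305 RefSeq promoters of the same length (0.0732%), and CACGTG in 7.43% of them. The paired element was not in the ARRDC4 window and CACGTG was not in the TXNIP window. These matches describe the letters only.

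Among 13 tested genes of the MondoA and ChREBP network and its targets, 3 fell, 1 rose and 9 were not called, beside 1.73% of all tested genes called, and the median log2 fold change was -0.03 (0.01 over all tested genes). The third member to fall was KLF10, a TGF-beta-inducible zinc finger repressor, at 38.5, 38.2 and 40.7 CPM in LG and 55.2, 55.4 and 54.8 CPM in NG (log2 -0.49, SE 0.0501, edgeR adjusted p = 9.27e-05). The member that rose was PPP1R3B, which targets protein phosphatase 1 to glycogen, at 31.3, 29.8 and 30.3 CPM in LG and 21.3, 21.8 and 21.2 CPM in NG (log2 0.51, edgeR adjusted p = 0.00263). The factors themselves were not called, with log2 values of -0.00 for MLXIP (MondoA), 0.13 for MLXIPL (ChREBP) and -0.03 for MLX. The list joins regulators and targets, and its median lay near that of all genes although its called members include the 2 strongest falls. Among the 5 tested alpha-arrestins only TXNIP and ARRDC4 were called.

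Across all genes, 261 of 15104 (1.73%) were called at an adjusted p under 0.05, 151 higher (1%) and 110 lower (0.728%) in LG. The typical change was small. Its median size was 0.34 on the log2 scale, 6 genes passed a 2-fold change, 49 reached 0.5 and 45 stayed under 0.25. The 3 LG and 3 NG libraries did not overlap for 260 of the 261, beside 19.4% of all tested genes without overlap. Lack of overlap in a named gene therefore adds nothing to its call. At an unadjusted p under 0.05 edgeR had 2303 genes (15.2% of all tested), 8.18% higher and 7.07% lower, and over all tested genes DESeq2 called 1.2% lower and limma-voom 0.689%. Of the called genes 243 were annotated as protein coding and 14 as long non-coding RNA. The calls rested on few libraries: 64 of the 261 held with any 1 of the 6 libraries left out, and leaving out a library gave 167 calls for NG 1, 98 for NG 2, 83 for NG 3, 88 for LG 1, 99 for LG 2 and 364 for LG 3. A block for the replicate number moved the count both ways, to 147 over all 12 libraries and to 1678 of 14663 (11.4%) over LG and NG alone, where 918 rose (6.26%) and 760 fell (5.18%) and the median size among them was 0.20. In that last fit, on the same LG and NG libraries, 258 of the 261 genes were called in the same direction, which is no separate support. The shares of 1% higher and 0.728% lower, and of 6.26% and 5.18% in that last fit, are the measure for each count of list members below. Rises made up 57.9% of the 261 calls, a share that was 69.5% with library totals as the only scaling. Beyond TXNIP, ARRDC4, the strongest calls, the highest levels and 2 members a list, genes below were named after their values had been seen.

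**Figure D1:**
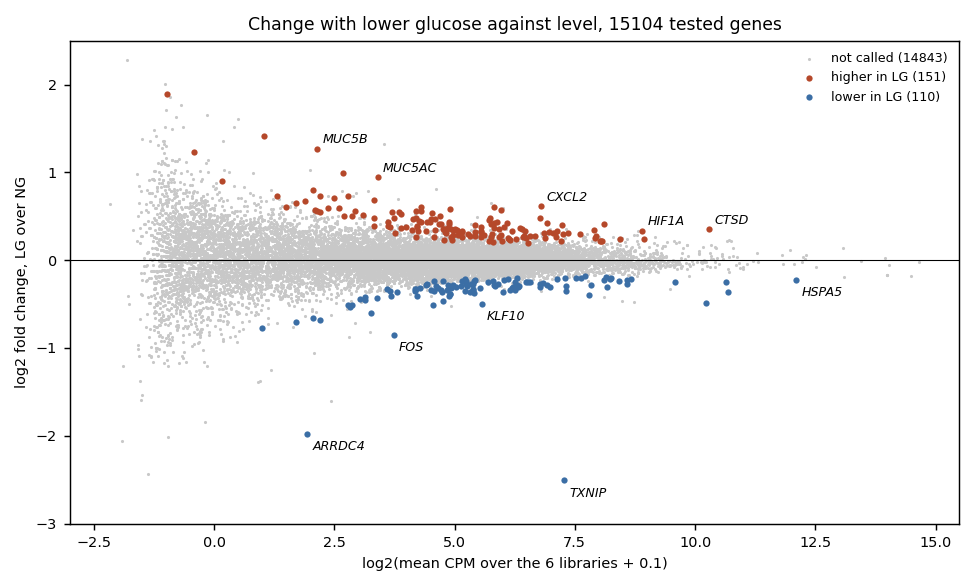
Each point is 1 of the 15104 tested genes, with the log2 of its mean CPM over the 6 libraries plus 0.1 on the x axis and its log2 fold change, LG over NG, on the y axis. The 151 genes called higher are red and the 110 called lower are blue, TXNIP at -2.51 and ARRDC4 at -1.98 stand far below the rest, and 11 genes that were not called lie outside the drawn range.

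The strongest rises among genes with at least 5 CPM in the higher group were in 2 gel-forming mucins and, between them, LOC107986558 (log2 0.99). MUC5B, a secreted mucin of airway and gland mucus, was at 5.61, 6.61 and 6.12 CPM in LG and 2.32, 2.95 and 2.34 CPM in NG. MUC5AC, its neighbour on chromosome 11 with 21928 bases between them, was at 15.3, 14.4 and 11.5 CPM in LG and 6.73, 7.88 and 6.84 CPM in NG. Neither overlapped between the groups, and the log2 fold changes were 1.27 for MUC5B (SE 0.167, edgeR adjusted p = 0.00104) and 0.95 for MUC5AC (SE 0.145, edgeR adjusted p = 0.00422). BHLHA15, a transcription factor of secretory cells known as MIST1, moved the other way, at 7.70, 7.09 and 8.01 CPM in LG and 12.3, 11 and 11.2 CPM in NG (log2 -0.60, edgeR adjusted p = 0.00422). The other 9 of 12 tested mucin and goblet cell genes were not called, and the list had a median of 0.06.

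Other strong rises fell in unrelated classes. ID3 and ID1, inhibitors of basic helix-loop-helix factors and targets of BMP signalling, were at 7.57, 8.57 and 9.28 CPM and at 21.3, 24.5 and 24.6 CPM in LG, against 5.31, 4.93 and 5.02 CPM and 15.1, 17.8 and 14.7 CPM in NG. Their log2 fold changes were 0.73 (SE 0.129) and 0.56 (SE 0.0920), with edgeR adjusted p of 0.00756 and 0.00467. They were the called members of 22 tested ID factors and SMAD feedback genes, whose median was 0.10. CD22, a lectin of B cells, was at 12.4, 11.2 and 13.4 CPM in LG and 6.59, 7.54 and 8.80 CPM in NG (log2 0.68, edgeR adjusted p = 0.00476), while the B cell marker MS4A1 was at 0. LINC02009, a long non-coding RNA, was at 22.8, 24.8 and 23.3 CPM in LG and 14.7, 15.7 and 16.1 CPM in NG (log2 0.61, edgeR adjusted p = 3.11e-04). PPARGC1A, the coactivator of mitochondrial biogenesis PGC-1alpha, was at 7.49, 7.05 and 5.89 CPM in LG and 4.60, 4.30 and 3.61 CPM in NG (log2 0.71, edgeR adjusted p = 0.0456), and its call ended when NG 1, NG 2, NG 3, LG 1 or LG 2 was dropped, where the highest edgeR adjusted p was 0.219. GRAMD1B, a carrier of sterols between membranes, was at 5.61, 4.96 and 4.94 CPM in LG and 2.94, 3.24 and 2.72 CPM in NG (log2 0.80, edgeR adjusted p = 0.0174), with the call ended without NG 1, NG 3, LG 1 or LG 2.

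FOS, an immediate-early subunit of the AP-1 factor, fell most after TXNIP and ARRDC4 among the genes with at least 5 CPM. Its level was 9.20, 9.0 and 10.1 CPM in LG and 19.2, 16.6 and 15.2 CPM in NG, without overlap (log2 -0.85, SE 0.106, edgeR adjusted p = 5.82e-04). Of 24 tested AP-1 and immediate-early genes FOS alone fell, 3 rose and 20 were not called, with a median of -0.01. The 3 that rose were ZFP36 by 0.34, ZFP36L1 by 0.24 and FOSL2 by 0.22 on the log2 scale, of which ZFP36 and ZFP36L1 encode proteins that speed the decay of AU-rich transcripts and FOSL2 another AP-1 subunit. The calls of ZFP36 and ZFP36L1 ended without any 1 of the 6 libraries, and that of FOSL2 without NG 1, NG 2, NG 3, LG 1 or LG 2. Further falls included TCAF2, a regulator of TRP channels, by -0.68 and TNFRSF10D, a decoy receptor for TRAIL, by -0.51, both with calls that held without any 1 library. TNFRSF10D was at 18.6, 20.3 and 19 CPM in LG and 26.7, 26.9 and 28.8 CPM in NG (edgeR adjusted p = 3.11e-04). ZNF385A, a zinc finger protein, and MIR210HG, the host transcript of a hypoxia-linked microRNA, each had a log2 fold change of -0.51, with calls that ended without NG 1, NG 2, NG 3, LG 1 or LG 2 for both genes and also without LG 3 for MIR210HG.

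**Figure D2:**
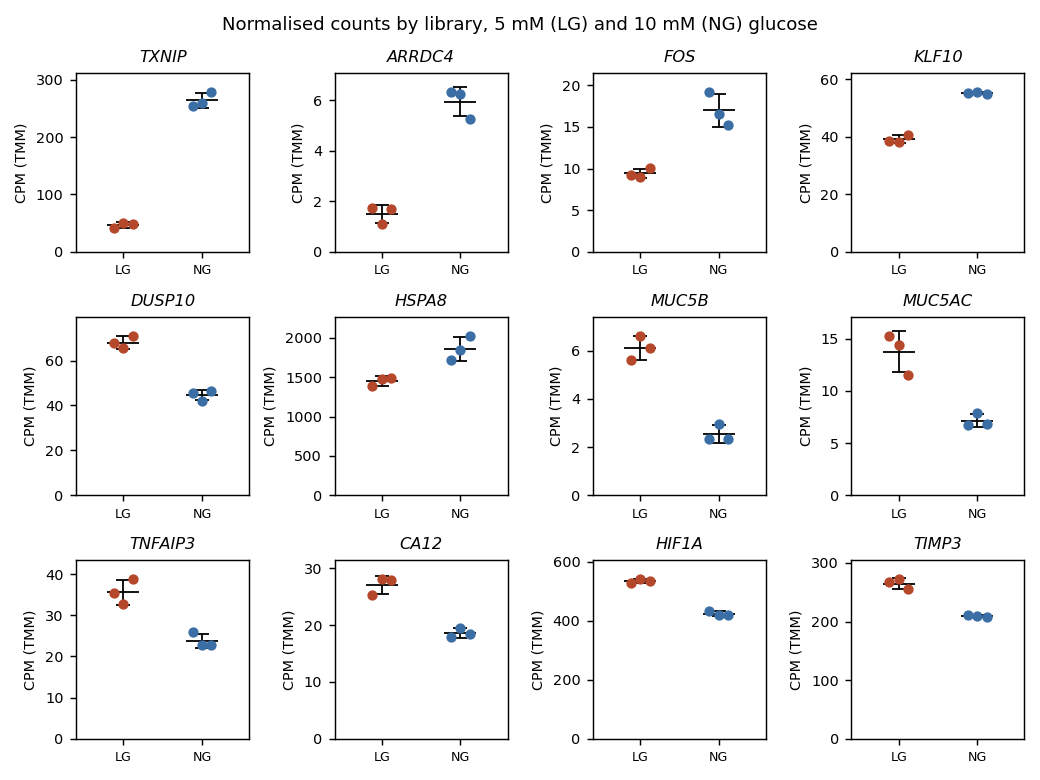
Points are CPM with TMM scaling in each of the 3 LG and 3 NG libraries for 12 genes, and the horizontal mark and bar are the mean and SD. Groups do not overlap, from TXNIP at 40.6 to 50.0 CPM in LG against 255 to 278 CPM in NG to TIMP3 at 255 to 272 CPM against 208 to 211 CPM. The 12 genes were picked from called genes, nearly all of which lack overlap, so its absence here is no separate support.

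Every tested gene of the heat shock list had a negative log2 fold change. Of 24 tested heat shock and cytosolic chaperone genes 6 fell and 18 were not called, beside 0.728% of all tested genes called lower, and all 24 log2 fold changes were negative, with a median of -0.16. At an unadjusted p under 0.05 edgeR had 18 lower and none higher, beside 7.07% of all tested genes lower at that p. DESeq2 called 9 lower and limma-voom 6, beside 1.2% and 0.689% of all tested genes. With the replicate block over LG and NG alone 20 were called lower, beside 5.18% of all genes in that fit. The medians of the list's log2 ratios between same-numbered libraries were -0.17, -0.13 and -0.16. HSPA8, the constitutive HSP70 that folds new proteins, was at 1383, 1478 and 1494 CPM in LG and 1720, 1840 and 2026 CPM in NG (log2 -0.36, SE 0.0598, edgeR adjusted p = 0.00516). Its promoter is printed because heat shock elements, the binding letters of HSF1, lie in it. The window is chr11:123062087-123062386 on the minus strand of GRCh38.p14 from RefSeq, and capitals mark the heat shock element, searched as the triplets GAA, TTC and GAA with any 2 bases between neighbours, at position -230 and, on the other strand, at position -55.
HSPA8: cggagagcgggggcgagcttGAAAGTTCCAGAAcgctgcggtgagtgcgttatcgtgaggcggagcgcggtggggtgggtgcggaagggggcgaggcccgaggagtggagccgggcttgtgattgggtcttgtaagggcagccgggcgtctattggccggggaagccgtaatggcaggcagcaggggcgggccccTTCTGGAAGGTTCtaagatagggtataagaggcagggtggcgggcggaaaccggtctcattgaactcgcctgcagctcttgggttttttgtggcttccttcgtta
Searched on both strands, that element was found in 0.487% of the 27305 promoters. The inducible pair HSPA1A and HSPA1B each had a log2 fold change of -0.28, and HSPA1B was at 352, 350 and 335 CPM in LG and 433, 412 and 412 CPM in NG (edgeR adjusted p = 0.00454). The copies are nearly identical and, in GENCODE, 36.5% of the exonic bases of HSPA1B also belong to a second gene in the same orientation, so their counts are uncertain. The remaining members called were the HSP40 cochaperones DNAJA1 by -0.28 and DNAJB1 by -0.20, and CHORDC1, an HSP90 cochaperone, by -0.30. HSF1 itself had a log2 fold change of -0.01 and was not called. Leaving out 1 library gave 2 to 7 members called lower, with 2 without LG 2 and 3 without NG 2, NG 3 or LG 1. The call of HSPA1A ended without LG 2, those of DNAJA1 and CHORDC1 without NG 2, NG 3, LG 1 or LG 2, and that of DNAJB1 also without NG 1.

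Chaperones of the endoplasmic reticulum gave 3 falls. Of 24 tested genes of the unfolded protein response 3 fell, beside 0.728% of all tested genes, 21 were not called and the median was -0.09. With the replicate block over LG and NG alone 11 were called lower, beside 5.18% of all genes. HSPA5 (BiP), the main chaperone of that compartment, was at 4034, 4025 and 4125 CPM in LG and 4674, 4583 and 4980 CPM in NG (log2 -0.22, SE 0.0517, edgeR adjusted p = 0.0361). HYOU1, its HSP110 partner, was at 710, 701 and 682 CPM in LG and 835, 821 and 822 CPM in NG (log2 -0.24, edgeR adjusted p = 0.00895), a call that held without any 1 library. DNAJB9, a cochaperone induced by IRE1 and XBP1, changed by -0.24. The calls of HSPA5 and DNAJB9 ended without NG 1, NG 2, NG 3, LG 1 or LG 2.

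The amino acid arm of the stress response held more falls than rises. Of 32 tested targets of ATF4, the factor that amino acid shortage induces, 5 fell, 1 rose and 26 were not called, with a median of -0.10. Over all tested genes 0.728% were called lower and 1% higher. Under the replicate block over LG and NG alone 12 of these targets were lower and 2 higher, beside 5.18% and 6.26% of all genes. Transporters made up most of the 5 that fell. SLC6A9, a glycine transporter, was at 26.1, 24.8 and 26.9 CPM in LG and 32.6, 34.1 and 34.6 CPM in NG (log2 -0.38, edgeR adjusted p = 0.00454). SLC3A2, the shared heavy chain of large amino acid exchangers, was at 264, 241 and 269 CPM in LG and 316, 310 and 331 CPM in NG (log2 -0.31, edgeR adjusted p = 0.00545). Both calls held without any 1 library. The others were PSAT1 of serine synthesis by -0.31, VLDLR, a lipoprotein receptor, by -0.30 and SLC1A5, a glutamine transporter, by -0.20, with calls that ended without NG 3 or LG 1 for all of them, also without LG 2 for PSAT1 and SLC1A5, NG 1 for VLDLR and SLC1A5 and NG 2 for SLC1A5. DDIT3 (CHOP), the proapoptotic factor of the same pathway, went the other way, at 50.5, 47.7 and 57.5 CPM in LG and 40.0, 43.9 and 43.5 CPM in NG (log2 0.29, edgeR adjusted p = 0.0446, ended without NG 1, NG 2, NG 3, LG 1 or LG 3). WARS1 was the sole member called among 20 aminoacyl-tRNA synthetases, by -0.21 (ended without NG 2, NG 3, LG 1 or LG 2), and the median of that list was -0.06.

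Entry into S phase gave 6 falls. They came from 38 tested genes for copying DNA and passing from G1 to S, beside 0.728% of all tested genes called lower. The other 32 were not called and the median was -0.10. Of the 38 values 34 were negative, beside 7266 of 15104 over all tested genes. CDC25A, a phosphatase that activates CDK2, was at 24.1, 22.4 and 23.1 CPM in LG and 29.6, 30.2 and 29.7 CPM in NG (log2 -0.36, SE 0.0553, edgeR adjusted p = 0.00353). FEN1, the flap endonuclease of lagging-strand synthesis, was at 71.2, 69.5 and 71.8 CPM in LG and 83.4, 85.9 and 88.6 CPM in NG (log2 -0.28, edgeR adjusted p = 0.00571), and both calls held without any 1 library. CCNE1 (cyclin E1) by -0.46, MCM10 by -0.32, RRM2, a ribonucleotide reductase subunit, by -0.31 and CDC6 by -0.29 were the others. Their calls ended without NG 2 or NG 3 in each case, without LG 1 except for MCM10, without LG 2 except for RRM2, and without NG 1 for CCNE1 and MCM10, and that of CCNE1 ended without LG 3 too. The list kept 2 to 6 calls with 1 library left out, 2 of them without NG 2 or NG 3. With the replicate block over LG and NG alone 12 were called lower and none higher, beside 5.18% and 6.26% of all genes. In the 31 genes of mitosis and G2/M edgeR called none, DESeq2 and limma-voom called none, 1 was higher at an unadjusted p under 0.05, 2 were called higher with the replicate block over LG and NG alone, and the median was 0.04. The difference between both lists was not tested.

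Growth-related lists held few calls in the planned fit. MYC rose to 254, 244 and 290 CPM in LG, against 222, 212 and 227 CPM in NG (log2 0.26, edgeR adjusted p = 0.0398, ended without NG 1, NG 2, NG 3, LG 1 or LG 3). Among 31 tested genes of ribosome biogenesis it was the member that rose, while NOP56, a box C/D ribonucleoprotein, fell by 0.26 and NOLC1, a nucleolar scaffold, fell by 0.18 on the log2 scale, and 27 of 31 values were negative (median -0.08). Calls ended without NG 2, NG 3, LG 1 or LG 2 for both NOP56 and NOLC1 and without NG 1 for NOLC1. At an unadjusted p under 0.05 edgeR had 12 of the 31 lower and 1 higher, beside 7.07% and 8.18% of all tested genes. With the replicate block over LG and NG alone 11 were lower and 1 higher, beside 5.18% and 6.26% of all genes. None of 41 ribosomal protein genes was called by edgeR, DESeq2 or limma-voom or reached an unadjusted p under 0.05 by edgeR, 3 were called lower with the replicate block over LG and NG alone, and their median was -0.05. The 16 tested genes of the histone list had no call by these 3 tools, with 1 lower at an unadjusted p under 0.05, 2 called lower with that block and a median of -0.17. H2BC18, a histone gene outside that list, was called lower by edgeR (log2 -0.53, edgeR adjusted p = 0.0495) and DESeq2 but not by limma-voom. Its edgeR call ended without any 1 of the 6 libraries. Many histone genes have near-identical copies, so their values are uncertain.

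In the hypoxia list a regulator rose. HIF1A, the oxygen-regulated subunit of hypoxia-inducible factor 1, was at 528, 540 and 535 CPM in LG and 434, 418 and 418 CPM in NG (log2 0.34, SE 0.0470, edgeR adjusted p = 0.00188). VEGFA, an angiogenic growth factor, and KDM3A, a histone demethylase, changed by -0.24 and -0.22. The call of HIF1A held without any 1 library, while that of VEGFA ended without NG 1, NG 2, NG 3, LG 1 or LG 2 and that of KDM3A without any 1 of the 6. Of 34 tested hypoxia genes 1 rose, 3 fell and 30 were not called, the median was -0.10, and 17 were lower and 3 higher without overlap, beside 9.51% and 9.86% of all tested genes. With the replicate block over LG and NG alone 13 were lower and 3 higher, beside 5.18% and 6.26% of all genes.

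The glycolysis list held 2 falls, both in kinases that control its flux. PFKFB4, which sets the level of fructose 2,6-bisphosphate, was at 26.0, 23.6 and 26.1 CPM in LG and 31.1, 35.8 and 33.7 CPM in NG (log2 -0.41, SE 0.0707, edgeR adjusted p = 0.00647). PFKFB3, its close relative, was at 53.4, 49.4 and 50.6 CPM in LG and 64.6, 61.2 and 61.1 CPM in NG (log2 -0.29, edgeR adjusted p = 0.0106, ended without LG 2). They were the 2 members called of 20 tested, and the median was -0.04, with log2 values of -0.05 for GAPDH, -0.03 for PKM and -0.14 for LDHA, which were not called. At an unadjusted p under 0.05 edgeR had 6 of the 20 lower and 1 higher, beside 7.07% and 8.18% of all tested genes. With the replicate block over LG and NG alone 6 were lower and 1 higher, beside 5.18% and 6.26% of all genes. Of 14 glucose transporters and hexokinases edgeR and limma-voom called none and DESeq2 called 1 lower. At an unadjusted p under 0.05 by edgeR 3 of them were higher and 2 lower, beside 8.18% and 7.07% of all tested genes, and 1 was called lower with the replicate block over LG and NG alone. SLC2A1 (GLUT1) had a log2 fold change of -0.15 and SLC2A3 (GLUT3) of 0.12. None of 24 genes of the pentose phosphate, hexosamine and glycogen pathways was called by edgeR or limma-voom, and DESeq2 called 1 lower, with 4 lower at an unadjusted p under 0.05 and with 1 higher and 2 lower under that block.

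Acid and lactate transport had 1 call in each direction among 19 tested genes. CA12, a membrane-bound carbonic anhydrase that faces outward, was at 25.3, 28.1 and 27.9 CPM in LG and 17.9, 19.5 and 18.4 CPM in NG (log2 0.54, SE 0.0859, edgeR adjusted p = 0.00426). SLC16A3 (MCT4), the lactate exporter of glycolytic cells, was at 368, 346 and 346 CPM in LG and 413, 424 and 398 CPM in NG (log2 -0.22, edgeR adjusted p = 0.0378), a call that ended without any 1 of the 6 libraries. In mitochondrial metabolism, PC, pyruvate carboxylase, rose by 0.25 among 29 genes of pyruvate entry and the tricarboxylic acid cycle, with a call that ended without NG 1, NG 2, NG 3, LG 1 or LG 2. Of the exonic bases of PC, 10.5% lie opposite a gene in the other orientation. None of 36 nuclear genes of the respiratory chain was called by edgeR, DESeq2 or limma-voom, with 1 lower at an unadjusted p under 0.05, and none of 13 mitochondrially encoded mRNAs was called or reached that p (medians -0.01 and 0.01). With the replicate block over LG and NG alone 2 of these nuclear genes were called lower and 1 of these mRNAs higher. FLCN, the folliculin regulator of AMPK and mTORC1, was the member called of 16 AMPK genes, by 0.23 (ended without NG 1, NG 2, NG 3, LG 1 or LG 2), and 11.9% of its exonic bases belong to a second gene too.

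Feedback genes of NF-kB gave 3 rises among 20 tested genes of their list, beside 1% of all tested genes called higher. TNFAIP3 (A20), a deubiquitinase that ends NF-kB signalling, was at 35.4, 32.7 and 38.7 CPM in LG and 25.8, 22.8 and 22.8 CPM in NG (log2 0.58, SE 0.0713, edgeR adjusted p = 5.56e-04). BIRC3, a ubiquitin ligase of the same pathway, was at 181, 177 and 186 CPM in LG and 144, 144 and 150 CPM in NG (log2 0.31, edgeR adjusted p = 0.00286). NFKBIA, the inhibitor IkB-alpha, was the third, by 0.31, with a call that ended without any 1 of the 6 libraries. The other 17 of 20 tested NF-kB subunits and feedback genes were not called, and the median was 0.05. Among 26 chemokines, cytokines and growth factors, CXCL2, a neutrophil chemokine, was at 123, 122 and 156 CPM in LG and 87.6, 87.5 and 87.2 CPM in NG, with LG 3 well above the other LG libraries (log2 0.61, SE 0.0906, edgeR adjusted p = 0.00426). IL24 rose by 0.37 (ended without NG 1, NG 2, LG 1, LG 2 or LG 3), and 24 members were not called. With the replicate block over LG and NG alone 8 were higher and 2 lower, beside 6.26% and 5.18% of all genes. The list median was 0.10 in all libraries and its same-numbered pairs gave 0.06, -0.01 and 0.15.

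Among feedback genes of ERK signalling, 2 dual-specificity phosphatases, which switch off MAP kinases, rose. DUSP10, which acts on p38 and JNK, was at 67.7, 65.4 and 71.0 CPM in LG and 45.4, 42.1 and 46.2 CPM in NG (log2 0.61, SE 0.0633, edgeR adjusted p = 1.06e-04), and its call held without any 1 library. DUSP5, a nuclear ERK phosphatase, was at 138, 144 and 154 CPM in LG and 124, 110 and 118 CPM in NG (log2 0.31, ended without NG 2), and SPRY2, an inhibitor of receptor tyrosine kinase signalling, changed by 0.27 (ended without NG 1, NG 2, NG 3, LG 2 or LG 3). They were 3 of 20 tested ERK feedback genes, beside 1% of all tested genes called higher, and the list median was 0.03. No interferon-stimulated gene of 30 was called by edgeR, DESeq2 or limma-voom, with 2 higher at an unadjusted p under 0.05 and 2 called higher with the replicate block over LG and NG alone.

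The circadian list had the highest median, 0.18, among the lists of pathway genes. PER1, a repressor of the clock loop that also responds to stress hormones and cyclic AMP, was at 15.9, 15.9 and 14.3 CPM in LG and 11.6, 10.9 and 9.10 CPM in NG (log2 0.55, SE 0.0912, edgeR adjusted p = 0.00516). NPAS2, a paralog of CLOCK, was at 112, 113 and 109 CPM in LG and 94.1, 91.6 and 90.9 CPM in NG (log2 0.27, edgeR adjusted p = 0.00426). DBP, an output factor of the clock, was at 5.44, 5.18 and 6.12 CPM in LG and 3.75, 3.58 and 2.81 CPM in NG (log2 0.73, edgeR adjusted p = 0.0330), a call that ended without any 1 of the 6 libraries, and 10.1% of the exonic bases of DBP lie opposite a gene in the other orientation. Those were the 3 called of 18 tested, beside 1% of all tested genes called higher. Medians of same-numbered pairs were 0.12, 0.24 and 0.15, and BMAL1 and CLOCK had log2 values of -0.09 and 0.08. Of 14 Kruppel-like factors KLF6 rose by 0.22 (ended without NG 2, NG 3, LG 1 or LG 2) and KLF10 fell.

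Adhesion genes gave 2 small rises. Of 29 tested integrin, matrix and adhesion genes 2 were called, beside 1% of all tested genes called higher. The median was 0.09 and 24 values were positive, beside 7838 of 15104 over all tested genes. With the replicate block over LG and NG alone 11 were higher and none lower, beside 6.26% and 5.18% of all genes. ITGB4, the beta-4 integrin of hemidesmosomes, was at 156, 154 and 139 CPM in LG and 128, 121 and 113 CPM in NG (log2 0.31, edgeR adjusted p = 0.0118). LAMA3, a chain of laminin 332 that this integrin binds, rose by 0.25. Both calls ended without NG 2, NG 3, LG 1 or LG 2, and that of LAMA3 also without NG 1. Of 23 tested targets of the Hippo effectors YAP and TEAD 2 were called, NUAK2, a kinase of the AMPK family, by 0.53 (ended without NG 3 or LG 1) and LATS2, a Hippo kinase, by 0.26 (ended without NG 2, NG 3, LG 1 or LG 2). That list had a median of 0.13, and no member was called without NG 3 or without LG 1. With the replicate block over LG and NG alone 12 were higher and none lower, beside 6.26% and 5.18% of all genes. MYLK, the myosin light chain kinase, was the member called of 24 actomyosin genes, at 169, 162 and 135 CPM in LG and 133, 122 and 115 CPM in NG (log2 0.33, ended without NG 2, NG 3, LG 1 or LG 2).

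Of the matrix protease genes 2 rose and 2 fell. TIMP3, a matrix-bound inhibitor of metalloproteases, was at 268, 272 and 255 CPM in LG and 211, 209 and 208 CPM in NG (log2 0.34, SE 0.0467, edgeR adjusted p = 0.00161). TIMP2 was at 520, 533 and 539 CPM in LG and 457, 453 and 433 CPM in NG (log2 0.25, ended without NG 2, NG 3 or LG 2). PLAT, the tissue plasminogen activator, was at 186, 189 and 201 CPM in LG and 244, 258 and 255 CPM in NG (log2 -0.39, edgeR adjusted p = 0.00354). The list had 17 tested members, of which 13 were not called, and a median of 0.00.

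Lysosomal genes rose in 3 of 35 tested members, beside 1% of all tested genes called higher. CTSD, the aspartic protease cathepsin D, was at 1366, 1405 and 1437 CPM in LG and 1108, 1109 and 1082 CPM in NG (log2 0.35, SE 0.0560, edgeR adjusted p = 0.00426). Its value is uncertain, since in GENCODE 41.7% of its exonic bases belong to a second gene in the same orientation and 15.8% lie opposite another. NPC1, which exports cholesterol from the lysosome, was at 220, 213 and 207 CPM in LG and 174, 174 and 175 CPM in NG (log2 0.29, edgeR adjusted p = 0.00426), and MITF, a factor related to the lysosomal regulator TFEB, changed by 0.37 (ended without any 1 of the 6 libraries). The list median was 0.06. Of 23 V-ATPase subunits ATP6V0A2 fell, by -0.30 (ended without LG 2), and of 28 fatty acid genes PLIN2, a lipid droplet coat protein, by -0.31 (ended without NG 3, LG 1 or LG 2). Among 30 genes of cholesterol synthesis and uptake GRAMD1B was the member called, and the median was 0.01. HMOX1, heme oxygenase 1, changed by -0.34 (ended without NG 1, NG 3, LG 1 or LG 2) and was called with SLC3A2 among 24 genes of NRF2, glutathione and thioredoxin.

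Survival, growth factor and non-coding genes gave few calls in the planned fit. BBC3 (PUMA), a proapoptotic target of p53, was at 15.9, 14.7 and 15.8 CPM in LG and 11, 11.9 and 10.4 CPM in NG (log2 0.48, SE 0.0780, edgeR adjusted p = 0.00467), and the other 18 p53 targets tested were not called. TSC1, which restrains mTORC1, rose by 0.33 among 26 genes of insulin and PI3 kinase signalling (ended without NG 2, NG 3, LG 1 or LG 2). IGFBP1 and IGFBP3, neighbouring genes on chromosome 7 for carriers of insulin-like growth factors, fell by 0.37 and 0.32 on the log2 scale, and each call ended without NG 1, NG 2, NG 3, LG 1 or LG 2. Among 16 snoRNA and microRNA host RNAs, MIR22HG was at 22.1, 22.8 and 22.8 CPM in LG and 29.4, 30.4 and 33.8 CPM in NG (log2 -0.47, SE 0.0697, edgeR adjusted p = 0.00286). SNHG32, which lies next to HSPA1B on chromosome 6, changed by -0.28 (ended without NG 2, NG 3, LG 1 or LG 2), MIR17HG by 0.57 (ended without any 1 of the 6 libraries), and the list median was -0.12. At an unadjusted p under 0.05 edgeR had 7 of the 16 lower and 1 higher, beside 7.07% and 8.18% of all tested genes. With the replicate block over LG and NG alone 8 were lower and 1 higher, beside 5.18% and 6.26% of all genes. None of 10 other long non-coding RNAs on a list was called by edgeR, DESeq2 or limma-voom, with 2 higher and 1 lower at an unadjusted p under 0.05 and 1 higher and 2 lower with the replicate block over LG and NG alone. SNAI2, an epithelial-mesenchymal transition factor, and OXTR, the oxytocin receptor, rose by 0.30 and 0.55 among the cell type markers, with calls that ended without NG 3 or LG 1 for both, NG 1 or LG 3 for SNAI2 and NG 2 for OXTR. MYLK, given above, is on the basal marker list and was called too.

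**Figure D3:**
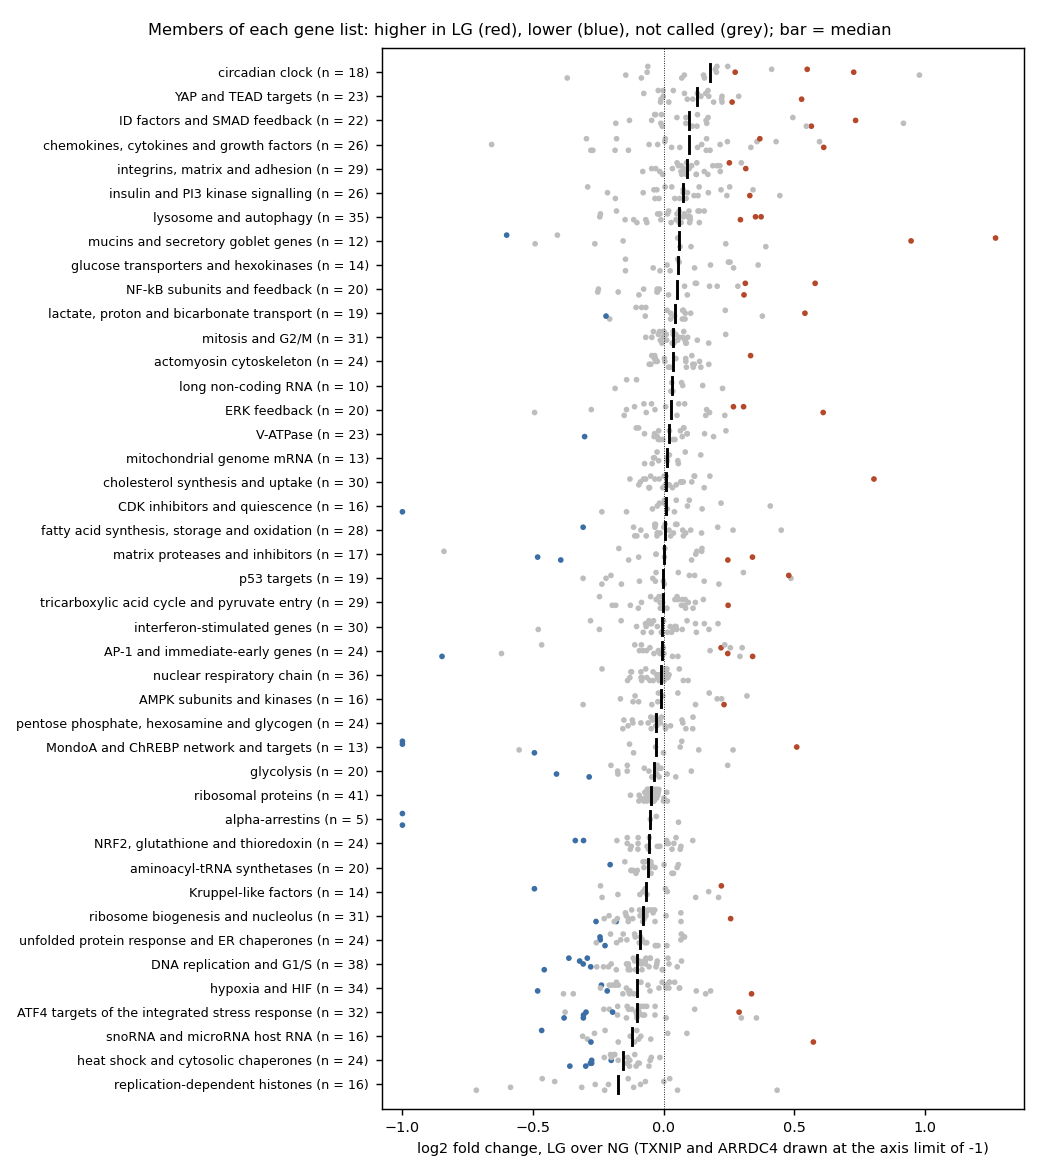
Each row is a gene list, with the number of tested members in brackets, and each point is the log2 fold change of a member, LG over NG. Called members are red (higher) or blue (lower), the bar is the list's median, from -0.17 for histones and -0.16 for heat shock genes to 0.18 for the circadian clock, and TXNIP and ARRDC4 are drawn at the axis limit.

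The same step from 10 to 5 mM glucose was also made in cells with cariporide, in the other 6 libraries. These entered the comparison above only through the filter, the scaling and the estimate of the spread, which all 12 libraries shared. Their calls are therefore not fully independent of those between LG and NG. There LGCAR and CAR differed in 249 of 15104 genes (1.65%), 147 higher (0.973%) and 102 lower (0.675%). These groups did not overlap in library measures. Ribosomal RNA held 9.32%, 9.84% and 11.5% of the counts in LGCAR and 7.10%, 8.53% and 7.98% in CAR, and mitochondrial mRNA held 4.88% to 5.43% in LGCAR and 5.82% to 6.86% in CAR. Total counts were 18069004 to 20464308 in LGCAR and 22721107 to 24837409 in CAR, and CAR 1 lay apart from CAR 2 and CAR 3 on the first principal component. The part of these measures in the calls cannot be told apart from that of glucose. Of the 261 genes called between LG and NG, 256 had the same sign between LGCAR and CAR (98.1%), beside 70.7% of all tested genes. Called in both were 108 genes, all in the same direction, which is 41.4% of the LG list and 43.4% of the LGCAR list. Genes called higher in LG had a median log2 fold change of 0.28 between LGCAR and CAR, against 0.36 between LG and NG, and those called lower had -0.22 against -0.31. Genes chosen on LG and NG values tend to have larger values there, so the smaller medians with cariporide are not read as an effect of the drug. Calls between LGCAR and CAR numbered 69 without CAR 3, 54 without LGCAR 1, 51 without LGCAR 2 and 67 without LGCAR 3, and 18 with the ribosomal RNA percentage added as a covariate.

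**Figure D4:**
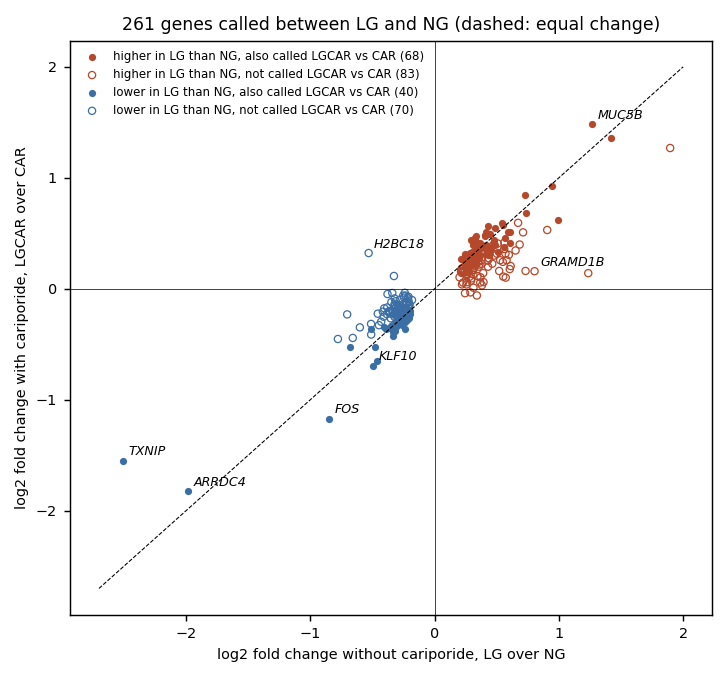
The x axis is the log2 fold change between LG and NG and the y axis that between LGCAR and CAR for the 261 genes called in LG. Filled points, 68 higher and 40 lower, were also called with cariporide, and the dashed line marks equal change. Medians were 0.36 without and 0.28 with cariporide for the genes called higher, and TXNIP lies at -2.51 and -1.55. All genes shown were chosen on the x axis comparison, so nothing is read from the gap between the medians.

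The test of the difference between both steps called 1 gene of 15104 (0.00662%), and 473 (3.13%) had an unadjusted p under 0.05. Among the 261, which were chosen on LG and NG values that also enter this test, 42 had such a p, and nothing is read from that count. TXNIP was at 84.3, 79.9 and 94.6 CPM in LGCAR and 263, 249 and 245 CPM in CAR, so that it fell by 1.55 on the log2 scale with the drug. The difference from its fall without the drug was 0.96 on the log2 scale (SE 0.105, edgeR adjusted p = 0.00138). Every LGCAR library was above every LG library, while CAR and NG overlapped. ARRDC4 was at 1.52, 1.63 and 1.91 CPM in LGCAR and 6.95, 5.33 and 5.67 CPM in CAR, with a difference between the steps of 0.15 that was not called (SE 0.256, edgeR adjusted p = 1). DESeq2 called 5 genes in this test, limma-voom called 1, and edgeR with the ribosomal RNA percentage added as a covariate called 0, with 640 at an unadjusted p under 0.05.

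KLF10 (-0.69), HIF1A (0.30), TIMP3 (0.37), CA12 (0.59), MUC5B (1.48) and FOS (-1.17) were called between LGCAR and CAR too. TNFAIP3 was at 27.6, 26.8 and 26.0 CPM in LGCAR and 21.8, 23.5 and 22 CPM in CAR, a log2 fold change of 0.26 that was not called (edgeR adjusted p = 0.0863). CXCL2 had 0.20 (edgeR adjusted p = 0.263) and GRAMD1B 0.16 (edgeR adjusted p = 0.635) there. Their differences between the steps, -0.32, -0.41 and -0.65, did not pass the threshold (edgeR adjusted p = 1 for each). Heat shock genes had medians of -0.14 between LGCAR and CAR and -0.16 between LG and NG, and clock genes had 0.13 and 0.18. Histone genes had 0.21 and -0.17, and chemokines and cytokines -0.13 and 0.10, and the difference between these medians was not tested.

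**Figure D5:**
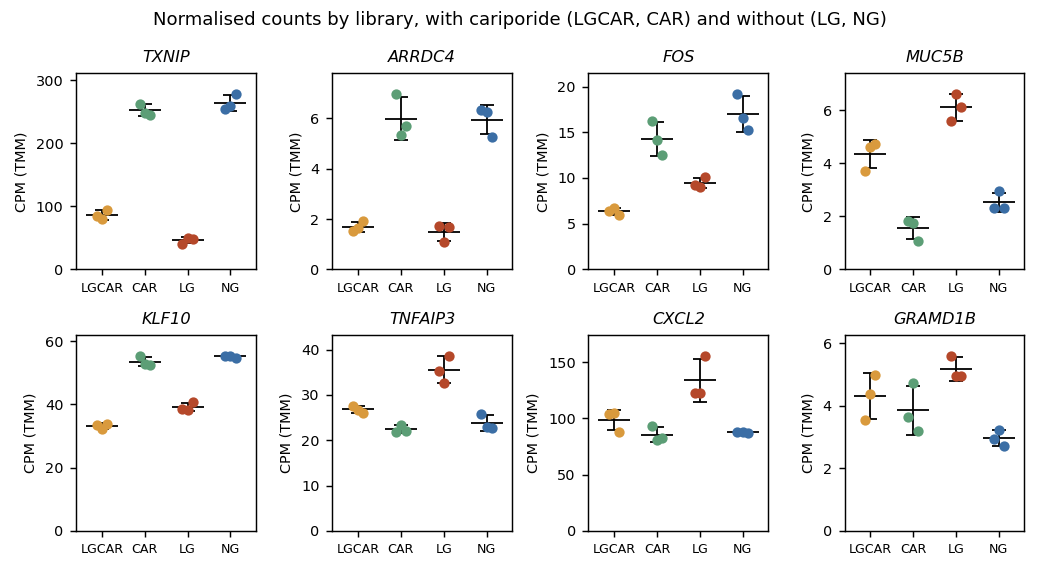
Points are CPM with TMM scaling in the 3 libraries of each group, LGCAR, CAR, LG and NG, for 8 genes, with the mean and SD. TXNIP lies at 79.9 to 94.6 CPM in LGCAR and 40.6 to 50.0 CPM in LG, and CXCL2 at 88.1 to 104 CPM in LGCAR and 122 to 156 CPM in LG.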

How the data were processed

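The authors deposited raw whole-number counts per gene for each library. The submitters' processing notes list GATK, Salmon, STAR, fastp and the GRCh38 build, while the counting tool, its use of strand and all versions were not given in the sources used here. The libraries were grouped by their labels. Counts were fitted over all 12 libraries and 4 groups with edgeR 4.0.16 (R 4.3.3, TMM scaling, filterByExpr, quasi-likelihood test), and p-values were adjusted by Benjamini-Hochberg over the 15104 genes tested, with calls at an adjusted p under 0.05. The common biological coefficient of variation was 6.94%, and totals of 20771898 to 23991233 counts in LG and NG set the precision of low genes. SE is the absolute log2 fold change divided by the square root of the quasi-likelihood F statistic, not a separately estimated standard error. DESeq2 1.42.0, limma-voom (limma 3.58.1), other scalings and filters, a replicate block, ribosomal RNA as a covariate and leaving out each library were alternatives. The labels do not say that libraries with the same number were paired, so a pairing was inferred from these same data. In LG and NG every same-numbered correlation passed 0.1, and in LGCAR and CAR all 3 were negative. A shifted matching in LGCAR and CAR was also positive throughout (LGCAR 1 with CAR 3 0.261, LGCAR 2 with CAR 1 0.174, LGCAR 3 with CAR 2 0.0681). The correlations thus do not establish a pairing, and counts under the block over LG and NG alone depend on that reading.

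Genes named were TXNIP and ARRDC4, the 10 highest and 10 lowest log2 fold changes of called genes that had no locus number and no overlap and reached a mean of 5 CPM in either group, the 5 called genes with the highest level, up to 2 called members of each list, and 3 genes by the smallest p of the difference between the steps. The comparison and the lists were chosen with earlier results of these data known, and the block over LG and NG alone was added after seeing the data. The edgeR test of LG against NG was run on simulated counts that had no shared deviations between libraries. Its outcome for changes as small as the typical call is not given here, so nothing is read from that run. Tables were handled in Python 3.11.15 with pandas 2.3.3. All shares of exonic bases were computed from GENCODE exons. The annotation behind the counts was not given, so whether a second gene took part of these counts was not tested. Promoters of 11630 of the 15104 genes matched, too few for a comparison of gene sets, so only shares over all promoters are given. Some genes that the rule would name are not reported here.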

Additional observations from a re-analysis of the deposited data

Results flagged for a closer look

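TXNIP fell with lower glucose both with and without cariporide, and the 2 falls differed. The log2 fold change was -1.55 between LGCAR and CAR and -2.51 between LG and NG, a difference of 0.96 (SE 0.105, edgeR adjusted p = 0.00138), and the 3 LGCAR libraries, at 79.9 to 94.6 CPM, lay above the 3 LG libraries, at 40.6 to 50.0 CPM. The call was lost with the ribosomal RNA percentage added as a covariate.

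H2BC18, a histone H2B gene, had opposite signs in the 2 steps. It was flagged because its groups did not overlap in either step, so that separation is no support. It was at 6.78, 7.13 and 6.70 CPM in LGCAR and 4.47, 6.11 and 5.92 CPM in CAR (log2 0.32, not called, edgeR adjusted p = 0.223). Without the drug it was at 6.28, 5.05 and 5.75 CPM in LG and 8.72, 8.90 and 7.10 CPM in NG (log2 -0.53). The difference of 0.85 (SE 0.187) did not pass the threshold (edgeR adjusted p = 0.873), and the call between LG and NG ended when any 1 of the 6 libraries was dropped, where the highest edgeR adjusted p was 0.211.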

How the results depend on the processing

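Of the 68 named genes 35 were called between LG and NG under every alternative that tested them, of which ARRDC4, MUC5B and TCAF2 were not tested at a mean of at least 5 CPM, and none of the 68 changed direction. The 261 calls between LG and NG became 147 with the replicate block over 12 libraries, 1678 with that block over LG and NG alone, 118 with LG and NG alone and no block, and 586 with the ribosomal RNA percentage added as a covariate, and they numbered 83 to 364 with 1 library left out. Other scalings, filters and tools gave 249 to 380. The block over 12 libraries cost 22 of the named genes their call and the block over LG and NG alone cost none. The share of calls higher in LG, 57.9%, was 69.5% with library totals as the only scaling and 56.9% to 65.9% with 1 library left out, where 65.9% was without LG 1. The 249 calls between LGCAR and CAR became 391 with no filter, 135 with the block, 18 with the covariate and 419 with DESeq2, and 51 to 188 with 1 library left out. For the difference between the steps, 1 call became 2 with no filter, 0 with the covariate (640 at an unadjusted p under 0.05) and 5 with DESeq2, and 1 to 3 with 1 library left out, with 2 without NG 1 and 3 without NG 2. The causes were not tested. List medians moved by more than their spread in 47 of 832 combinations of list and alternative.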

Other observations

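Further genes outside the lists also kept their call with any 1 of the 6 libraries left out, and these were chosen after their values were seen. ATOH8, a basic helix-loop-helix factor, was at 2.72, 2.91 and 2.87 CPM in LG and 0.711, 1.40 and 1.06 CPM in NG, without overlap (log2 1.42, SE 0.209, edgeR adjusted p = 0.00286). LOXL4, an enzyme that crosslinks matrix, rose by 0.43 (edgeR adjusted p = 3.40e-04), and GSN, the actin-severing protein gelsolin, rose by 0.36. TGFBR3, a coreceptor for TGF-beta, rose by 0.48, while PMEPA1, an inhibitor of TGF-beta signalling, fell by 0.34 on the log2 scale. SCNN1A, the alpha subunit of the epithelial sodium channel, rose by 0.46, and CD59, which blocks the complement attack complex, rose by 0.27. MAT2A, which makes S-adenosylmethionine, was at -0.35 on that scale with an edgeR adjusted p = 0.00129, and PNO1, a factor of small ribosomal subunit assembly, fell by 0.38. Long non-coding RNAs among these were UCA1, which rose by 0.43, and LINC00472, which rose by 0.48.

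Called genes lay within 50 kb of each other at several places, some of which are given here. How often tested genes lie that close was not counted, so nothing is read from it. On chromosome 11 MUC5AC and MUC5B rose together, and on chromosome 7 IGFBP1 and IGFBP3, 18585 bases apart, fell together. On chromosome 6 HSPA1A and HSPA1B, 9796 bases apart, and SNHG32, 4662 bases from HSPA1B, all fell. HSPA1A and HSPA1B are nearly identical copies, so their falls are not separate observations. On chromosome 17 LOC124904067 and TIMP2, 6185 bases apart, both rose, and the call of LOC124904067 ended without any 1 of the 6 libraries.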
